A study of Mus musculus with 2 samples.

Results

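The 8 genes described here are mouse snoRNA host genes, long non-coding RNA genes whose introns carry small nucleolar RNAs (snoRNAs). They are Gas5, Snhg1, Snhg3, Snhg4, Snhg5, Snhg6, Snhg8 and Snhg12, taken by name, through their Entrez Gene numbers, from a count table of 27179 genes, and all 8 were found. The table comes from RNA sequencing of ALL65, a mouse leukaemia of the T lineage, T-ALL. The genes were chosen by name with their Dox and untreated counts in this table already known, and with no measured threshold, so their ratios are described and not tested. The transplanted leukaemia carries the transgenes Vav-tTA and TRE-GFP-shIkaros in both groups, so a tetracycline-controlled hairpin against Ikaros, linked to green fluorescent protein (GFP), is expressed until doxycycline (Dox) shuts it off. The Vav promoter is active in blood cells, Ikaros is a lymphoid transcription factor encoded by Ikzf1, and every cell here derives from a single leukaemia. The Dox group held GFPmid cells sorted from the spleens of recipient mice given Dox for 3 days, and the untreated group held GFPhigh splenic cells of recipient mice given no Dox. The series speaks of 3 mice per group and 2 sequencing runs of each RNA, but the table has 1 column per group, so each value below stands without replicate error and no difference has a replicate check. Treatment and sort gate differ together between the groups and cannot be told apart.

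Many snoRNAs guide chemical modification of ribosomal RNA, and some act in its processing instead. As guides, box C/D snoRNAs direct methylation of ribose and box H/ACA snoRNAs direct conversion of uridine to pseudouridine. Each class works in a particle with its own set of core proteins. A host gene is transcribed and spliced, the excised intron is trimmed back to the snoRNA, and the exons are left as a spliced RNA that in many hosts, Gas5 among them, is removed by nonsense-mediated decay when translation is active. Gas5 was first known as a transcript that accumulates in growth-arrested cells, and its level in lymphocytes varies with growth state.

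The cargo differs between hosts, and the sequences of 7 snoRNAs are shown so that both classes can be seen. The letters are DNA of the GENCODE M21 annotation on GRCm38, the assembly behind the mm10 build of the counts, read in the direction of the transcript. In the box C/D snoRNAs (Snord names) capitals mark an exact C box, TGATGA, and the last D box, CTGA. In the box H/ACA snoRNAs (Snora names) they mark the ACA that stands 3 bases from the 3′ end.
Snord47, inside Gas5, chr1:161038082-161038158, plus strand: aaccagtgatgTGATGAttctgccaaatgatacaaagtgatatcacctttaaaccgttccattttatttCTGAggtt
Snord22, inside Snhg1, chr19:8725866-8725991, plus strand: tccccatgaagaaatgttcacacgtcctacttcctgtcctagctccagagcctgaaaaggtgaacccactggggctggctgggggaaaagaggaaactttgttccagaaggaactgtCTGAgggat
Snora73a, inside Snhg3, chr4:132352775-132352979, minus strand: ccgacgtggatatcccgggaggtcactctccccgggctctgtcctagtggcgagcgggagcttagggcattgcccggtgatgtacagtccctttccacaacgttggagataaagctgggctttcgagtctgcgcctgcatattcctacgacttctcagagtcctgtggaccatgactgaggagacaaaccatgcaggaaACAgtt
Snord50a, inside Snhg5, chr9:88521529-88521600, minus strand: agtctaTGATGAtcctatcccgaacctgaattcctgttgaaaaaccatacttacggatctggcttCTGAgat
Snord87, inside Snhg6, chr1:9942463-9942549, minus strand: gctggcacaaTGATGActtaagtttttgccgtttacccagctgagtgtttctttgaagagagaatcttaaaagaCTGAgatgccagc
Snora24, inside Snhg8, chr3:123507937-123508066, minus strand: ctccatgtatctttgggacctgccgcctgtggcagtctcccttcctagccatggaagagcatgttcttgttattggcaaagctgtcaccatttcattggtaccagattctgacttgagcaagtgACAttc
Snord99, inside Snhg12, chr4:132310691-132310764, plus strand: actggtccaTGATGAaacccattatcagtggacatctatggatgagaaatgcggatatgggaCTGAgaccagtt
Snord22 holds the D box letters but no exact TGATGA. RefSeq places 8 snoRNAs inside Gas5, 8 inside Snhg1, 4 inside Snhg12, 2 each inside Snhg3 and Snhg5, and 1 each inside Snhg4, Snhg6 and Snhg8.

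The Dox library held 14457475 counts and the untreated library 7477988 counts. Counts per 1000000 counts (CPM) are given over library sizes scaled by the trimmed mean of M values, and a log2 ratio is Dox over untreated, so a negative ratio means lower with Dox. Ikzf1, the hairpin's target, stood at 1455 CPM with Dox and 262 CPM without, a log2 ratio of 2.47. T cell markers were abundant, with 9 of 10 past 5 CPM and sums of 8511 CPM with Dox and 7630 CPM untreated, and Ptcra, at 0 counts with Dox and 3 untreated, was the exception. Of these 9 genes 3 were at least 1.5-fold higher with Dox, namely Cd4 at a log2 ratio of 0.83 (0.67 to 0.99), Cd8a at 0.80 (0.75 to 0.85) and Cd247 at 0.78 (0.70 to 0.85), where 6.28% of all genes were, while Cd3g stood at -0.28 and Cd3d at -0.25. The part of this difference in T cell markers in the ratios below was not tested. The 6 B cell markers summed to 0.422 CPM with Dox and 0.395 CPM untreated, with Ms4a1, Pax5 and Blk at 0 in both libraries. The 6 myeloid markers summed to 17.3 CPM with Dox and 16.4 CPM untreated, with Lyz2 at 1.69 CPM with Dox and 7.24 CPM untreated and Itgam at 14.7 CPM with Dox and 8.42 CPM untreated. Their log2 ratios were -1.99 (-2.86 to -1.38) for Lyz2 and 0.79 (0.39 to 1.23) for Itgam, and their part in the host ratios was not tested. The 5 erythroid markers found summed to 4.71 CPM with Dox and 3.55 CPM untreated, and the 5 NK cell markers to 3.09 CPM with Dox and 1.58 CPM untreated. Mpo and S100a8 of the myeloid list and Ncr1, Klrd1 and Klrk1 of the NK list were at 0 in both libraries.

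The host genes stood lower in the Dox library than in the untreated library. Of the 8 genes, 7 reached 5 CPM in whichever library was higher, and all 7 had a ratio below 0, between -0.66 for Snhg5 and -0.24 for Snhg8. Among all 10113 genes past that minimum 48.2% had a ratio below 0. At least 1.5-fold lower were 4 of the 7, namely Gas5, Snhg4, Snhg5 and Snhg12, where 6.18% of all genes were. None, 0 of the 7, reached 2-fold lower, where 2.24% of all genes did. The median over the 7 was -0.61, against 0.01 over all genes past the minimum, and with Snhg3 included the median of the 8 was -0.55. The members were listed with this contrast already known, so these shares only describe the list. In bulk RNA, fewer cells that express a gene and less RNA per cell cannot be told apart.

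**Figure D1:**
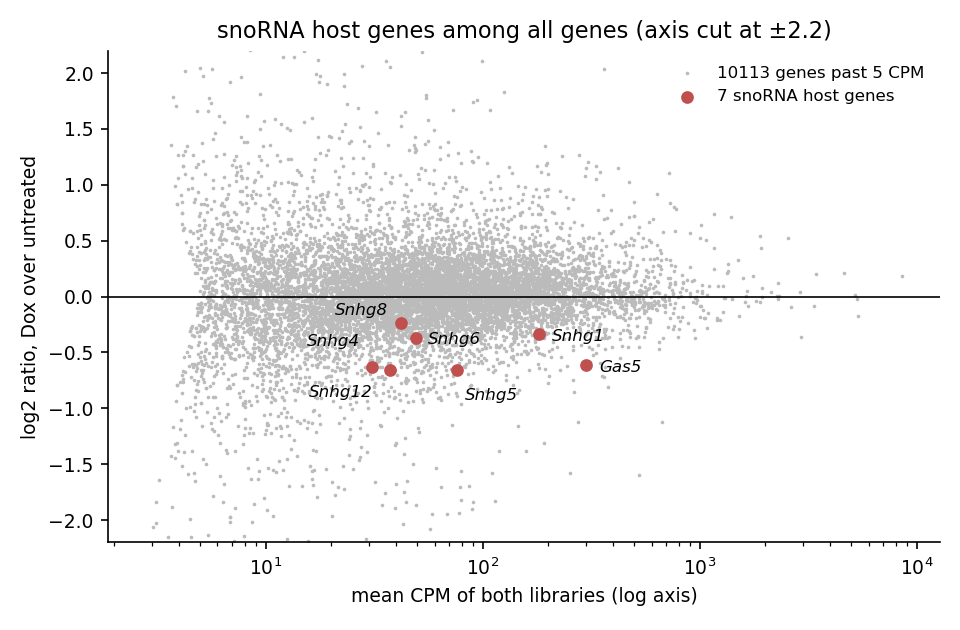
Log2 ratio of Dox over untreated against the mean CPM of both libraries (log axis), 1 grey point for each of the 10113 genes past the 5 CPM minimum and red points for the 7 snoRNA host genes that passed it. The red points lie below 0, between -0.66 and -0.24, from the middle to the upper part of the range of levels, and the ratio axis is cut at 2.2 to either side, which leaves 54 genes out of view.

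Gas5 (Entrez Gene 14455, chromosome 1 from 161034601 to 161038539, plus strand) was the most highly counted of the hosts. It had 3381 counts, 238 CPM, in the Dox library and 2767 counts, 364 CPM, in the untreated library. It was 1.53-fold lower with Dox, with a log2 ratio of -0.61 and an exact 95% counting interval from -0.69 to -0.54. Such intervals reflect counting error alone and say nothing of the spread between mice. Gas5 made up 40.1% of the 8 genes' counts with Dox and 43.1% untreated. The ratio lay at percentile 5.7 of all genes past 5 CPM.

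Snhg1 (Entrez Gene 83673, chromosome 19 from 8723487 to 8726326, plus strand), known as the U22 host gene after Snord22, the snoRNA printed above, lay closer to 0. It had 2295 counts, 161 CPM, in the Dox library and 1550 counts, 204 CPM, in the untreated library. The log2 ratio was -0.34, with an interval from -0.43 to -0.24, a 1.26-fold lower level. Its interval did not meet that of Gas5, so within these libraries the most abundant hosts were lower by different amounts.

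Snhg5 (Entrez Gene 72655, chromosome 9 from 88521052 to 88522897, minus strand), the U50 host gene, lay further from 0. It had 836 counts, 58.8 CPM, with Dox and 707 counts, 93.0 CPM, untreated, a 1.58-fold lower level with a log2 ratio of -0.66 (-0.81 to -0.52). Snhg12 (Entrez Gene 100039864, chromosome 4 from 132308678 to 132311024, plus strand), which carries Snord99 and 3 box H/ACA snoRNAs, stood beside it. It had 412 counts, 29.0 CPM, with Dox and 347 counts, 45.7 CPM, untreated, and a log2 ratio of -0.65 (-0.87 to -0.45). Snhg4 (Entrez Gene 100503380, chromosome 18 from 35553410 to 35558316), the host of Snora74a, had 346 counts, 24.3 CPM, with Dox and 286 counts, 37.6 CPM, untreated. Its log2 ratio was -0.63 (-0.86 to -0.40). These 3 genes and Gas5 had overlapping intervals and lay between percentiles 4.9 and 5.7 of all genes past 5 CPM.

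Snhg6 (Entrez Gene 73824, chromosome 1 from 9942025 to 9944118, minus strand), the host of Snord87, had 609 counts, 42.8 CPM, with Dox and 420 counts, 55.3 CPM, untreated. The log2 ratio was -0.37 (-0.55 to -0.19), a 1.29-fold lower level. Snhg8 (Entrez Gene 69895, chromosome 3 from 123507552 to 123508336, minus strand), the host of Snora24, had 548 counts, 38.5 CPM, with Dox and 346 counts, 45.5 CPM, untreated. Its log2 ratio of -0.24 (-0.44 to -0.04) was the nearest to 0 of the 7. Of the 21 pairs that the 7 genes form, 6 pairs had intervals that did not meet. The same share among pairs of all genes was not computed. Counting intervals narrow as counts rise, so this number only describes the list.

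Snhg3 (Entrez Gene 399101, chromosome 4 from 132351933 to 132353686, minus strand), the U17 host gene, was near the detection limit. It had 6 counts, 0.422 CPM, in the Dox library and 5 counts, 0.658 CPM, in the untreated library. The interval of its log2 ratio ran from -2.62 to 1.41, so a difference was not detectable at this depth. Its cargo snoRNA Snora73a held more counts than the host entry itself, 55 with Dox and 37 untreated.

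**Figure D2:**
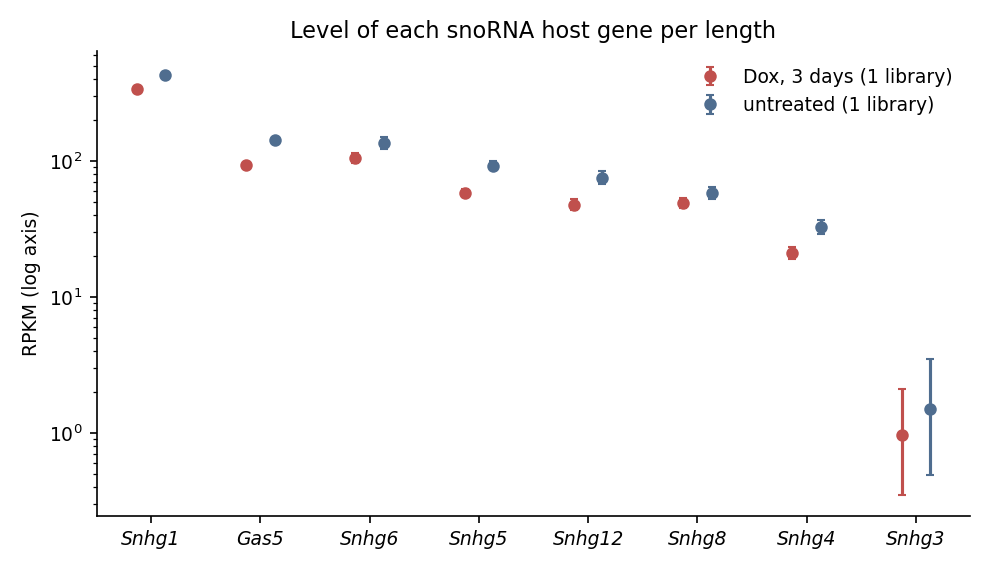
RPKM of each of the 8 snoRNA host genes on a log axis, with the Dox library in red to the left of the untreated library in blue, 1 library each, and bars for exact 95% Poisson intervals that cover counting error only. Snhg1 is highest in both libraries at 339 RPKM with Dox and 428 RPKM untreated, and Snhg3 is lowest at 0.965 RPKM with Dox and 1.51 RPKM untreated.

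Levels between genes were compared per length, as counts per kilobase of the deposited gene length and per 1000000 scaled counts (RPKM). In the Dox library the order of levels was Snhg1 at 339 RPKM, Snhg6 at 105, Gas5 at 93.1, Snhg5 at 58.1, Snhg8 at 49.1, Snhg12 at 47.8, Snhg4 at 21.1 and Snhg3 at 0.965 RPKM. In the untreated library it was Snhg1 at 428 RPKM, Gas5 at 143, Snhg6 at 136, Snhg5 at 92.0, Snhg12 at 75.3, Snhg8 at 58.0, Snhg4 at 32.7 and Snhg3 at 1.51 RPKM. Of neighbours in these orders, Snhg8 and Snhg12 with Dox and Gas5 and Snhg6 untreated had overlapping 95% Poisson intervals. Those are also the pairs that changed places between the libraries. Gas5 is the longest entry at 2554 bases, and Snhg6 the shortest at 407 bases, so that Gas5 leads by CPM while Snhg1, with 476 bases, leads per length.

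The snoRNAs inside the hosts were themselves poorly counted. Of 11 such snoRNAs with an entry in the table, Snora73b and Snora24 were at 0 in both libraries, and the 11 together held 263 counts with Dox and 185 untreated. The log2 ratio of these sums was -0.40 (-0.67 to -0.12). Snord22 had 95 counts with Dox and 51 untreated, with a log2 ratio of -0.01 (-0.51 to 0.51). Snord47, in Gas5, had 39 counts with Dox and 30 untreated, and a ratio of -0.50 (-1.25 to 0.21). In Snhg12, Snora61 had 24 counts with Dox and 25 untreated, with a ratio of -0.89 (-1.83 to -0.10), and Snord99 had 17 with Dox and 20 untreated, with a ratio of -1.03 (-2.16 to -0.13). The other snoRNAs of Snhg12 were Snora16a, with 18 counts with Dox and 12 untreated and a ratio of -0.28 (-1.45 to 0.87), and Snora44, with 7 counts with Dox and 2 untreated and a ratio of 0.60 (-1.49 to 4.21). Protocols for longer RNA recover few mature snoRNAs, and reads from unspliced host RNA cover the same bases, so these counts cannot be read as levels of mature snoRNAs. The counted length of Snhg8, 785 bases, fills its whole span, so Snora24 lies inside it. No source used here says how reads shared by a host and its snoRNA were counted. Snord50a and Snord50b of Snhg5, and 7 snoRNAs in each of Gas5 and Snhg1, had no entry of their own among the counted genes.

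The promoters are shown because many snoRNA hosts start in a pyrimidine tract. RefSeq windows of 300 bases on GRCm38.p6, 250 before to 50 after an annotated start, were at hand for 6 hosts, with 2 starts for Gas5. For the 5 of these hosts past 5 CPM, 130 bases are printed in the direction of transcription, from 80 before the annotated start. For Gas5 only the downstream start is printed, so the printed set looks more alike than the windows are. The upstream Gas5 window holds neither of the marks described next. Capitals mark TATAAA or TATATA lying 15 to 45 bases before the start, and a C within 10 bases of the start that is followed by at least 4 more C or T bases, with that run.
Gas5, downstream start, chr1:161035086-161035215, plus strand: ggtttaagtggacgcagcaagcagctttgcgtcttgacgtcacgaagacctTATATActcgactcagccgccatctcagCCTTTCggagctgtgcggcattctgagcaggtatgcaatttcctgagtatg
Snhg8, chr3:123508287-123508416, minus strand: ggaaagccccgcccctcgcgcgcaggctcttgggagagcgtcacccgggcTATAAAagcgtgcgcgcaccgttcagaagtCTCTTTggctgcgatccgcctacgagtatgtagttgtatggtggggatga
Snhg12, chr4:132308598-132308727, plus strand: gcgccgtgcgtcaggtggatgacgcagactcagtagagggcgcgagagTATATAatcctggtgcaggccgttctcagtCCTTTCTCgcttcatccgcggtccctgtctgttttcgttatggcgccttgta
Snhg5, chr9:88522848-88522977, minus strand: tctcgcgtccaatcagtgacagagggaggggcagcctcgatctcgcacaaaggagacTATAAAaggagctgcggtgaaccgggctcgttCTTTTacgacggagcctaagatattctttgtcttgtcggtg
Snhg1, chr19:8723407-8723536, plus strand: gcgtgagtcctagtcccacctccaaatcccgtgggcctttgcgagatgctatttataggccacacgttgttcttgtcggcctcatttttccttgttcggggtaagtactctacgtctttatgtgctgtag
TATAAA or TATATA stood 15 to 45 bases before the start on the gene's strand in 1 window each of Gas5, Snhg5, Snhg8 and Snhg12, 4 of the 7 windows, and in 2.96% of all 32851 RefSeq windows. Anywhere in the window and on either strand, TATAAA or TATATA was found in 6 of the 7 windows and in 17.1% of all windows, and the window at the upstream Gas5 start was the 1 without it. The pyrimidine run was found in 1 window each of Gas5, Snhg3, Snhg5, Snhg8 and Snhg12, 5 of the 7 windows, and in 30.7% of all windows. The upstream Gas5 window and that of Snhg1 lacked it. In Snhg1 the pyrimidine tract tttttcctt lies just after the start, but it opens with T and so falls outside the rule. CACGTG, the E-box letters bound by Myc, was found on either strand in 0 of the 7 windows and in 7.15% of all windows. TGGGAA, the core letters of the Ikaros motif, was found on either strand in the upstream Gas5 window and that of Snhg12, 2 of the 7 windows, and in 25.6% of all windows. The TATA letters and the pyrimidine run were chosen after the sequences had been seen, and a match is a description of letters, not a binding site. Snhg4 and Snhg6 have no window here, and the 7 windows include that of Snhg3, for which a difference was not detectable. Any part of these letters in the host ratios was not tested.

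Genes next to a host did not share a single pattern. Slc3a2, an amino acid transporter subunit, is divergent from Snhg1 with 117 bases between them, and it was 1.52-fold lower with Dox at 142 CPM with Dox and 217 CPM untreated, with a log2 ratio of -0.61 (-0.70 to -0.51). Wdr74, a ribosome assembly factor on the other side of Snhg1, had a ratio of -0.14 (-0.30 to 0.02). Matr3, a nuclear matrix protein gene 3841 bases from Snhg4, had a ratio of -0.25 (-0.31 to -0.19), and Sil1, on the other side of Snhg4, one of -0.30 (-0.59 to -0.01). Syncrip, an RNA-binding protein gene beside Snhg5, had one of -0.31 (-0.36 to -0.25), while Zfp949, with 87 counts with Dox and 33 untreated, had one of 0.48 (-0.10 to 1.12). Rcc1 at 0.12 (0.03 to 0.21) and Phactr4 at 0.13 (-0.03 to 0.28), beside Snhg3, and Trnau1ap at 0.05 (-0.16 to 0.26), beside Snhg12, lay near 0.

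Some hosts overlap genes of the opposite strand, and no source used here gives the strand setting of the counting. Zbtb37 overlaps the start of Gas5 by 264 bases and had a ratio of 0.15 (-0.26 to 0.58) on 150 counts with Dox and 72 untreated. It held fewer counts than Gas5 in each library. Mcmdc2, which overlaps Snhg6 by 1582 bases, was at 0 in both libraries, as were Tcf24 on the other side of Snhg6 and Prss12 and Ndst3 beside Snhg8. Rab42, beside Snhg12, had 6 counts with Dox and 5 untreated.

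Other non-coding snoRNA hosts were listed from general knowledge. Of 14 such genes 8 passed 5 CPM, and their ratios lay between -0.72 and -0.22. The ratio was at least 1.5-fold lower for 1 of the 8, where 6.18% of all genes were, at least 1.5-fold higher for 0, where 6.28% of all genes were, and the whole interval lay below 0 for 7, where 23.8% of all genes past 5 CPM had such an interval. Snhg7 had 142 counts, 9.98 CPM, with Dox and 126 counts, 16.6 CPM, untreated, and a log2 ratio of -0.72 (-1.09 to -0.37). Snhg16 stood at -0.55 (-0.84 to -0.27), Snhg20 at -0.51 (-0.90 to -0.14) and Epb41l4aos at -0.47 (-0.79 to -0.15). Snhg15 had 28.1 CPM with Dox and 38.6 CPM untreated, and Zfas1 had 131 CPM with Dox and 154 CPM untreated. Also below 5 CPM, Snhg10 had 21 counts with Dox and 7 untreated, with a ratio above 0 at 0.59 (-0.61 to 2.16). Snhg9 had 0 counts with Dox and 1 untreated. Snhg11, Snhg14, Snhg18 and Rian were at 0 in both libraries, which allows up to 0.211 CPM with Dox and 0.395 CPM untreated.

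**Figure D3:**
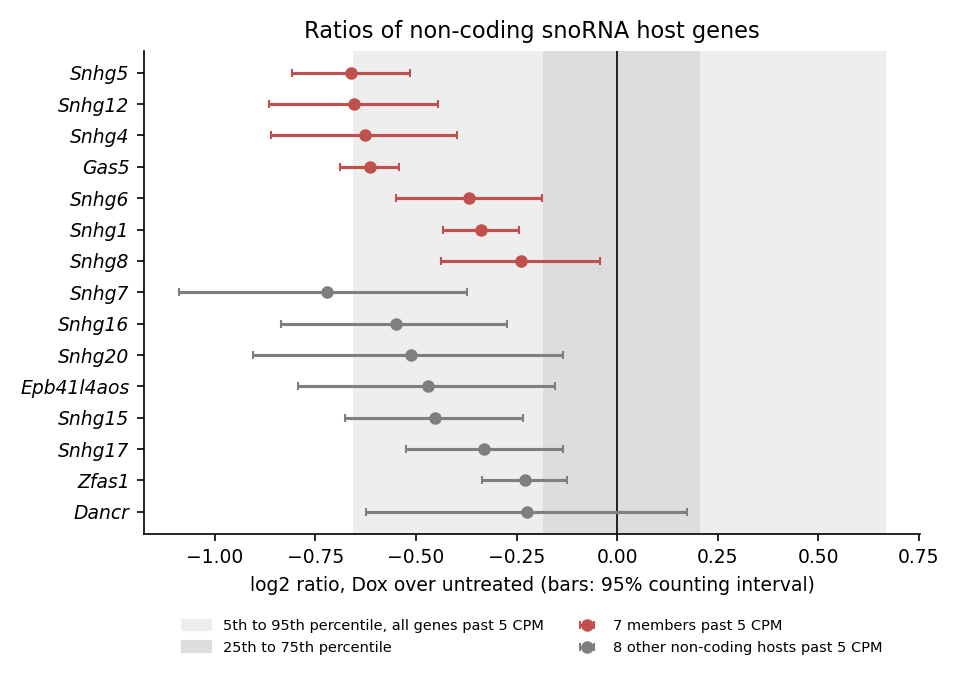
Log2 ratio of Dox over untreated for 7 listed snoRNA host genes (red) and 8 other non-coding hosts (grey) past the 5 CPM minimum, bars being exact 95% counting intervals. The shaded bands span the 5th to 95th and the 25th to 75th percentiles of all genes past 5 CPM, and all 15 points lie below 0, with Dancr and Snhg8 among those nearest to it.

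Long non-coding RNAs as a class also had a median below 0. The 139 RefSeq long non-coding RNA genes past 5 CPM that are not among the 8 had a median log2 ratio of -0.19. Of these 139 genes 22, or 15.8%, were past 1.5-fold downwards, where 6.18% of all genes were. Past it upwards were 12 of the 139, where 6.28% of all genes were. Protein-coding genes past 5 CPM, 9579 in number, had a median of 0.01. The 4263 genes past 5 CPM whose length lies between those of the shortest and the longest host had a median of 0.002, with 5.79% at least 1.5-fold lower.

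Protein-coding snoRNA hosts outside the ribosome were lower by smaller amounts. All 28 genes listed passed 5 CPM, and the median was -0.22. Of the 28 genes 22 had a ratio below 0, where 48.2% of all genes past 5 CPM did. The 1 gene of 28 past 1.5-fold lower, against 6.18% of all genes, was Gnl3, a nucleolar GTPase gene, at 193 CPM with Dox and 297 CPM untreated, and a log2 ratio of -0.62 (-0.70 to -0.54). Rnf149, a ubiquitin ligase gene, stood at -0.57 (-0.77 to -0.37), Taf1d, a subunit gene of an RNA polymerase I factor, at -0.49 (-0.60 to -0.38) and Dkc1, the pseudouridine synthase of box H/ACA particles, at -0.45 (-0.52 to -0.38). The interval lay wholly above 0 for 3 hosts, where 26.9% of all genes past 5 CPM had such an interval, and the highest was Ap1g1 at 0.24 (0.14 to 0.34).

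Ribosomal protein genes that host snoRNAs stood near 0. Of 18 genes 14 had a ratio below 0, where 48.2% of all genes past 5 CPM did. At least 1.5-fold lower was 1 of the 18, where 6.18% of all genes were, and the median was -0.06. The gene past 1.5-fold was Rpl12 at 43.4 CPM with Dox and 66.3 CPM untreated, with a ratio of -0.61 (-0.78 to -0.44), while Rps12 stood at -0.48 (-0.76 to -0.21) and Rpl10 at -0.21 (-0.49 to 0.07). Ribosomal protein genes have many processed pseudogenes, and no source used here says how shared reads were counted, so these values are uncertain.

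Genes for the particles that snoRNAs work in mostly had ratios below 0. Of 8 core protein genes 7 had a ratio below 0, where 48.2% of all genes past 5 CPM did. At least 1.5-fold lower were 0 of the 8, where 6.18% of all genes were. The median was -0.33, while Snu13 stood at 0.004. Nop58 had 396 CPM with Dox and 541 CPM untreated, and a ratio of -0.45 (-0.51 to -0.39), and Nop56, its partner in box C/D particles, one of -0.43 (-0.50 to -0.35). Dkc1 and Gar1, both of box H/ACA particles, stood at -0.45 (-0.52 to -0.38) and -0.33 (-0.49 to -0.18). Dkc1, Nop56 and Nop58 host snoRNAs too and are counted in both lists. Of 10 assembly factor genes 9 had a ratio below 0, where 48.2% of all genes past 5 CPM did, and the median was -0.29. The 1 gene of 10 past 1.5-fold lower, against 6.18% of all genes, was Naf1, which brings Dkc1 to new box H/ACA RNAs, at 30.9 CPM with Dox and 53.0 CPM untreated, with a ratio of -0.77 (-0.98 to -0.58). Nufip1 stood at -0.37 (-0.56 to -0.19), Nolc1 at -0.37 (-0.44 to -0.31) and Ruvbl2 at -0.37 (-0.46 to -0.28), and Pih1d1 had a ratio above 0, at 0.16 (-0.07 to 0.39).

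Genes of the pathways that degrade host exons and trim introns had medians near 0. Where 6.18% of all genes were at least 1.5-fold lower and 6.28% higher, the 10 nonsense-mediated decay genes had 0 in either direction. Their median was -0.02. The largest ratio of these was that of the kinase gene Smg1 at 0.28 (0.22 to 0.33), followed by Smg5 at -0.17 (-0.26 to -0.08), Smg8 at 0.16 (-0.04 to 0.37) and Upf2 at -0.10 (-0.21 to 0.01). The 7 genes of intron debranching and trimming had a median of 0.01, and 0 were past 1.5-fold, beside those same shares of all genes. The exonuclease gene Xrn1, listed among them though its enzyme acts mainly in cytoplasmic RNA decay, stood at 0.52 (0.38 to 0.67). The deadenylase gene Parn stood at -0.20 (-0.35 to -0.05), Exosc3 at 0.16 (-0.005 to 0.33) and the exosome nuclease gene Exosc10 at 0.04 (-0.06 to 0.15). Myc, a transcription factor gene that activates many ribosome biogenesis genes, had 273 CPM with Dox and 450 CPM untreated, with a ratio of -0.72 (-0.79 to -0.65). Its part in the lower host levels was not tested.

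**Figure D4:**
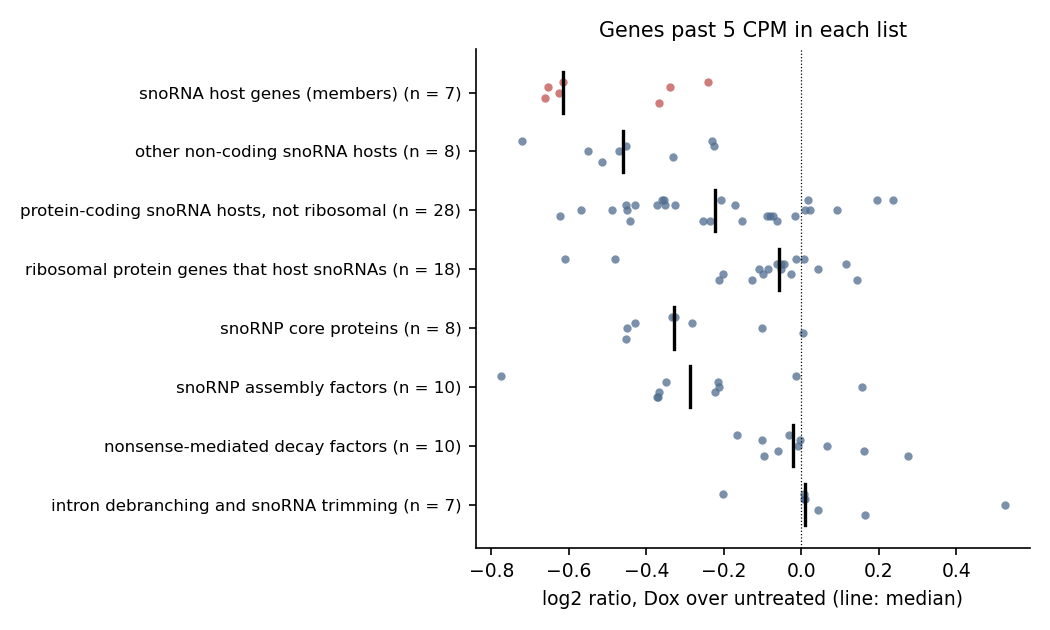
Log2 ratio of Dox over untreated, 1 point per gene past the 5 CPM minimum, for the 8 gene lists, with the number of genes beside each name and a black line at the median. The medians run from -0.61 for the listed snoRNA host genes to 0.01 for the genes of intron debranching and trimming, and the points are offset vertically only to keep them apart.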

How the data were processed

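The deposited counts are raw reads per gene, not normalized, and the authors' table also gives a gene length in bases. Per the submitters' processing notes, CASAVA 1.8.2 and featureCounts were used with build mm10; no source used here gives the aligner, annotation, strand setting or pooling of mice and runs. The series table and the single-library files differed in 0 values. Symbols and positions came from RefSeq on GRCm38.p6 for 25271 of 27179 genes. Counts were scaled by TMM (edgeR 4.0.16, R 4.3.3; factors 0.984 for Dox and 1.02 for untreated), log2 ratios used a prior count of 2, and exact Clopper-Pearson 95% intervals used none. No test could be run on 1 library per group. Intervals were tested on simulated data that held counting error alone, so that check says nothing of the spread between mice. The members, lists and thresholds were chosen with earlier results of these data known. Named list genes were the up to 4 largest absolute ratios past 5 CPM, and the nearest listed gene on each side of a host. Snhg9, Snhg10, Snhg15, Zfas1, Dancr, Ap1g1 and genes named at 0 were named after their values were seen. Alternatives were total counts, size factors from DESeq2 1.42.0, a prior count of 0.5 or 5, and a CPM minimum of 1, 20 or none. Python 3.11.15 and scipy 1.17.1 served the remaining steps. Some single-gene results are not reported here.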

Additional observations from a re-analysis of the deposited data

How the results depend on the processing

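The 8 host ratios moved within their counting intervals under DESeq2 size factors, total counts and prior counts of 0.5 and 5. They also did so under 2 alternatives chosen after seeing the data, which removed the ratio's trend with length or added the counts of the listed snoRNAs to their host. Across these, Gas5 ranged from -0.66 to -0.61, Snhg5 from -0.71 to -0.66, Snhg1 from -0.38 to -0.33 and Snhg8 from -0.29 to -0.24, and in each 4 hosts passed 1.5-fold lower and 0 passed 2-fold lower. Total counts moved the median of all genes past 5 CPM to -0.03, and that of intron debranching and trimming genes from 0.01 to -0.04. The number of all genes at least 1.5-fold lower, 625, was 1045 with a minimum of 1 CPM, 328 with 20 CPM and 2005 with none. The number at least 2-fold lower, 227, was 440, 104 and 744 under the same minimums; fewer or more genes entered each count. No paired analysis was possible because each group has 1 library. Depth limits Snhg3 and the snoRNA entries, which held few counts.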

Other observations

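snoRNA entries over the whole table gave a wider view of the cargo. Of 123 RefSeq snoRNA genes listed, 27 were at 0 in both libraries, and the 123 together held 1630 counts with Dox and 1203 untreated, a log2 ratio of the sums of -0.47. Only 6 of them passed 5 CPM in the higher library, with a median ratio of -0.33. Of these 6 entries 2 were at least 1.5-fold lower, where 6.18% of all genes past 5 CPM were. Reads of host introns cannot be told apart from mature snoRNAs in these counts.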
